A study of Homo sapiens with 18 samples.

Results

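The 31 genes described here make cholesterol and fatty acids or regulate that synthesis, and were measured by RNA-seq in LNCaP cells, an androgen-responsive human prostate cancer line. They were taken from a fixed list of symbols: 8 genes of the mevalonate arm, 11 of the arm from squalene to cholesterol, 6 regulators and carriers of sterols, and 6 genes of fatty acid synthesis. All 31 were found among 58037 listed genes and all passed the filter on low counts, which left 15185 genes. Cells grew in androgen-poor medium (9% serum stripped with charcoal). They received a pool of siRNAs against E2F1 (E2F1 siRNA), against E2F2 (E2F2 siRNA) or without a target (control siRNA), and then ethanol vehicle or 0.1 nM of the synthetic androgen R1881 for 48 h. Each of the 6 groups held 3 libraries, labelled as biological replicates, so 18 libraries in all. All groups thus shared 1 cell line, androgen-poor serum, Lipofectamine transfection and an siRNA pool; the time from transfection to treatment is given as 42 h in the series text and as 48 h in the sample labels.

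Cholesterol is built from acetyl-CoA through mevalonate, isoprenoids, squalene and lanosterol, and fatty acids are built from acetyl-CoA through malonyl-CoA. The genes of both routes are known targets of the SREBP transcription factors, which SCAP escorts out of the endoplasmic reticulum when sterols are low and which INSIG proteins hold back when sterols are high. In prostate cells, androgen receptor signalling is known to raise SREBP activity and lipid synthesis. E2F1 and E2F2 are transcription factors best known for cell-cycle genes.

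Each library held 10930204 to 14819879 counts. E2F1 averaged 74.4 CPM (counts scaled to library size with TMM factors) with control siRNA under R1881 and 9.69 CPM with E2F1 siRNA, and E2F2 averaged 3.43 CPM and, with E2F2 siRNA, 0.195 CPM. E2F2 siRNA also lowered E2F1, to a mean of 24.1 CPM under R1881. E2F2 with E2F1 siRNA under R1881 read 1.15, 1.68 and 1.53 CPM against 3.34, 2.36 and 4.59 CPM with control siRNA, without overlap (-1.22 ± 0.38, not called, adjusted p = 0.0586). The 8 luminal prostate markers summed to 4480 to 8117 CPM per library. The 12 markers of other cell types summed to 12.7 to 39.7 CPM, most of it COL1A1 (11.0 to 37.0 CPM), while CD3E and CHGA were at 0 counts in every library. These sums moved with the siRNA: 24.8 to 39.7 CPM with E2F2 siRNA, 12.7 to 17.3 CPM with E2F1 siRNA and 16.6 to 36.5 CPM with control siRNA, and their part in the results was not tested. Replicate 3 stood apart in every group: counts differed from replicates 1 and 2 by 7.39 to 83.9 chi-square units per degree of freedom, against 1.73 to 4.14 between replicates 1 and 2. Across 12687 genes, the deviation of each replicate 3 library correlated with gene GC content at r = 0.54 to 0.83, a description over genes, which are not independent. Among the lipid genes the lowest values in replicate 3, relative to the others, were those of AT-rich transcripts. MSMO1 (38.1% GC) was lower there by a median log2 of -1.01 over the 6 groups, SC5D by -0.86 and STARD4 by -0.72, while FASN (65.3% GC) was higher by 0.42 and SREBF1 by 0.41. The main fit, which gave the calls, SEs and adjusted p-values below unless a block is named, left the replicate number out. A separate fit took the number as a block that pairs samples across groups, although the labels do not say what it marks. For each comparison the genes that a fit with the replicate number as a block called in addition are named.

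Most of these genes rose with R1881, and the promoters below show DNA letters that several of them hold: capitals mark a sterol response element (TCACNCCAC) or an NF-Y box (CCAAT, or ATTGG on the other strand). Each is the 250 bases before a RefSeq start site in GRCh38.p14, plus strand, 5′ to 3′. SREBF2 encodes SREBP2 and was the single gene with an exact match to this sterol response element in its window. Variants of the element were not searched. The other 4 were chosen after the matches were seen, as genes with 1 window, an NF-Y box and small p-values with R1881: INSIG1 of the regulators, ACSL3 of fatty acid synthesis, FDPS of the mevalonate arm and EBP of the sterol arm.
SREBF2, chr22:41832855-41833104: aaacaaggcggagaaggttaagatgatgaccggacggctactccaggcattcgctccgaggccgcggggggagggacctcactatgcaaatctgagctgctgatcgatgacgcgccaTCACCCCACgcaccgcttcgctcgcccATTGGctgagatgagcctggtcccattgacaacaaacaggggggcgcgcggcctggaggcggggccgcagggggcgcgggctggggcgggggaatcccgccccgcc
INSIG1, chr7:155297628-155297877: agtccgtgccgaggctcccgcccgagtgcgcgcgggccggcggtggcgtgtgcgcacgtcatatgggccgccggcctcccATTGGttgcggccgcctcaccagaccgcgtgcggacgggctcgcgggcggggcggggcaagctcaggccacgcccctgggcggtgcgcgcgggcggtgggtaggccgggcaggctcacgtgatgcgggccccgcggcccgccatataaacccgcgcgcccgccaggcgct
ACSL3, chr2:222860786-222861035: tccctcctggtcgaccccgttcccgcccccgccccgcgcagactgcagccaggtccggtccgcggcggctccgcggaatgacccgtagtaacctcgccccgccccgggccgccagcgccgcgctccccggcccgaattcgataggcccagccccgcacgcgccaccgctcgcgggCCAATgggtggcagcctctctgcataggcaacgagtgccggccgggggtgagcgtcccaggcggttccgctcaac
FDPS, chr1:155308616-155308865: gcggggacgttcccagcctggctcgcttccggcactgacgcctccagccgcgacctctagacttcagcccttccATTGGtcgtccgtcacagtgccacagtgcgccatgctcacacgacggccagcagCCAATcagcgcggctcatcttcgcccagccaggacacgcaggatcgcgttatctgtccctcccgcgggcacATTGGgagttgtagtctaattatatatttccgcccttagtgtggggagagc
EBP, chrX:48521558-48521807: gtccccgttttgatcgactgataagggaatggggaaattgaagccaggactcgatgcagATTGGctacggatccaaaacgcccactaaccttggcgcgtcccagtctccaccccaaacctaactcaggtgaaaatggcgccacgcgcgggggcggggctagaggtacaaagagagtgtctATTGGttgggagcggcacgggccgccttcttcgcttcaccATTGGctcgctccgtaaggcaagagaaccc
In GENCODE 29 each of these 5 genes begins upstream of the RefSeq start used, so the 3′ end of 4 printed windows, and the whole EBP window, lies inside the gene as annotated there.

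In SREBF2 the sterol response element began at position -133 from the start site and the NF-Y box at -106. FDPS held NF-Y boxes at -176, -122 and -51, EBP at -191, -70 and -30, INSIG1 at -170 and ACSL3 at -75. The RefSeq table held promoter windows (250 bases before to 50 after a start) for 27 of the 31 genes, and none for ACAT2, FASN, SQLE and FDFT1. An NF-Y box was in a window of 21 of the 27 (77.8%), against 43.4% of the 10105 tested genes in the table. By window, the shares were 64.1% of 39 windows and 34.6% of all 35116 windows. The GC box GGGCGG was in 26 of 27 (96.3%, against 76.5% of tested genes), and the E-box CACGTG in 4 of 27 (14.8%, against 12.7%). An exact match to the sterol response element was in 1 of 27 (3.70%, against 1.48%). An E2F site (TTTCCCGC, TTTCGCGC, TTTGCCGC or TTTGGCGC) was in MVK, INSIG2 and ACACA, 3 of 27 (11.1%, against 6.59%). The androgen receptor motif AGAACA (a single repeat of its element) was in PMVK alone (3.70%, against 12.8%). Both strands were searched, the searched motifs do not contain one another, and a match is a description of letters and not of binding.

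**Figure D1:**
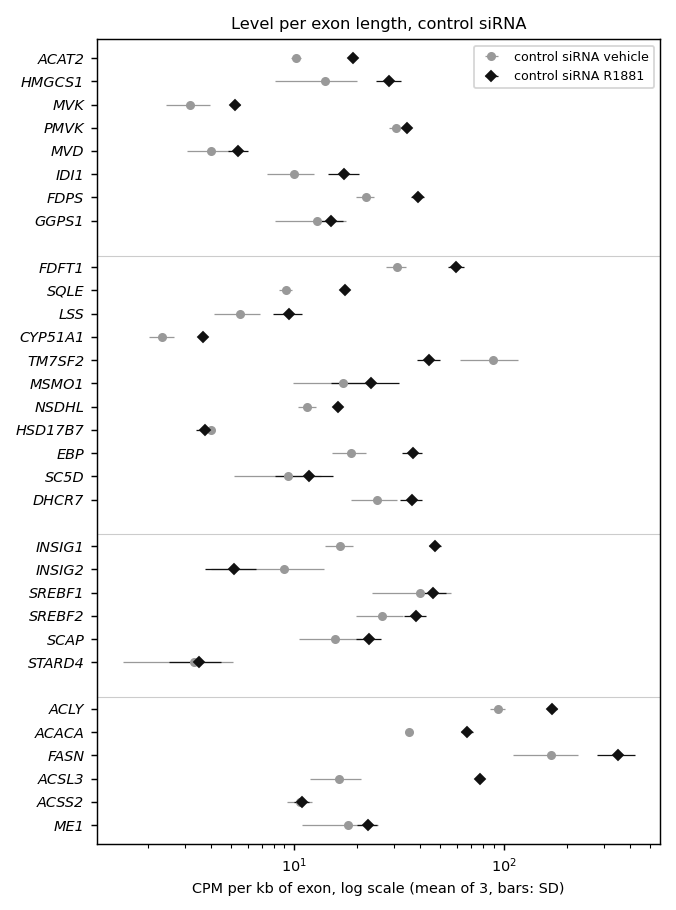
Level of the 31 genes with control siRNA, in CPM per kb of exon on a log scale (points: mean of 3 libraries; bars: SD), with vehicle in grey and R1881 in black, grouped by arm. FASN is highest in both groups, at 169 with vehicle and 351 with R1881, and TM7SF2 is the gene whose level is clearly lower with R1881.

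Per exon length, FASN and ACLY had the highest mean levels of the 31 genes. FASN, the fatty acid synthase, stood at 169 ± 58.7 CPM per kb (SD, n = 3) with control siRNA and vehicle. ACLY, which makes cytosolic acetyl-CoA from citrate, stood at 94.1 ± 7.82 CPM per kb and TM7SF2, a sterol C14-reductase, at 89.5 ± 27.7 CPM per kb, which overlap within their SDs. The other fatty acid genes were lower, from ACSS2 at 10.7 to ACACA at 35.4 CPM per kb. The lowest levels were those of CYP51A1 (2.35 ± 0.33 CPM per kb), MVK (3.20 ± 0.76) and the sterol carrier STARD4 (3.32 ± 1.8), again not distinguishable from their neighbours. With R1881 the order at the top was FASN (351 ± 72.0), ACLY (171 ± 10.0) and ACSL3 (77.5 ± 2.92), the last of which had stood at 16.3 ± 4.46 CPM per kb with vehicle. Summed over all 31 genes, the level was 4331, 4202 and 5605 CPM in the 3 vehicle libraries with control siRNA and 8050, 7762 and 9374 CPM with R1881. The sums did not overlap. The 6 fatty acid genes gave 2515, 2416 and 3380 CPM of the vehicle sums and 5423, 5205 and 6600 CPM of the R1881 sums.

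R1881 raised most of this gene set in cells with control siRNA. At an adjusted p under 0.05 (edgeR quasi-likelihood test, Benjamini-Hochberg over 15185 genes), 19 of the 31 genes rose and 1, TM7SF2, fell. Over all tested genes 13.8% rose and 13.2% fell. The median log2 change of the 31 genes was 0.55, against 0.00 for all tested genes. By arm, 5 of 8 mevalonate genes, 7 of 11 squalene-to-cholesterol genes, 3 of 6 regulators and 4 of 6 fatty acid genes rose. With the replicate block 23 rose and 2 fell, where 42.1% of all tested genes were called.

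**Figure D2:**
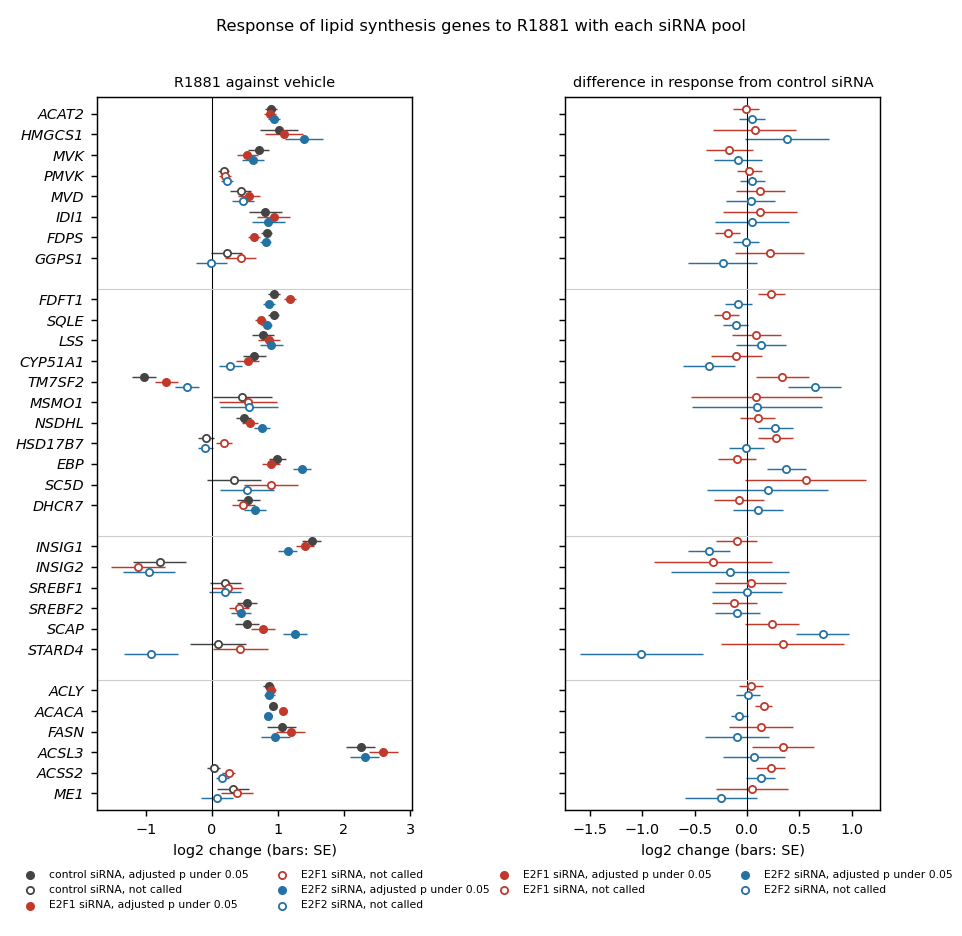
Left, log2 change with R1881 against vehicle for the 31 genes with control, E2F1 or E2F2 siRNA (points: estimate; bars: SE; filled: adjusted p under 0.05), and right, the difference of that change from control siRNA. On the left panel ACSL3 lies farthest right with each siRNA, followed by INSIG1 with control and E2F1 siRNA and by HMGCS1 with E2F2 siRNA. TM7SF2 and INSIG2 lie left of 0 with each siRNA, as does STARD4 with E2F2 siRNA, and no point on the right panel is filled.

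ACSL3 (chr2:222860934-222944639, GRCh38), an acyl-CoA synthetase of lipid droplets and the endoplasmic reticulum, had the largest rise. Its levels were 134, 139 and 80.9 CPM with vehicle and 576, 571 and 537 CPM with R1881. Every R1881 library was thus far above every vehicle library, at a log2 change of 2.25 ± 0.22 (SE), or 4.75-fold (adjusted p = 1.26e-06). ACACA (chr17:37084988-37406818) encodes acetyl-CoA carboxylase, the committed step of fatty acid synthesis. It read 475, 460 and 446 CPM with vehicle and 818, 860 and 931 CPM with R1881, with no overlap (log2 change 0.92 ± 0.06, adjusted p = 1.71e-08). ACLY went from 474, 462 and 538 CPM to 879, 844 and 947 CPM, a log2 change of 0.86 ± 0.08 (adjusted p = 1.05e-06). FASN (chr17:82078333-82098332) read 1300, 1231 and 2215 CPM with vehicle and 3012, 2794 and 4055 CPM with R1881. Its groups did not overlap, but replicate 3 was highest in both, and the log2 change was 1.05 ± 0.22 (adjusted p = 0.00176). The other 2 genes of the arm were not called: ACSS2, which activates acetate, had a log2 change of 0.03 ± 0.10, and ME1, a source of NADPH, 0.32 ± 0.24. ME1 was called with the replicate block at 0.37 ± 0.14 (adjusted p = 0.0415).

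In the mevalonate arm the called genes were ACAT2, HMGCS1, MVK, IDI1 and FDPS, at log2 changes of 0.71 to 1.02. HMGCS1, the synthase that makes HMG-CoA, read 81.0, 83.8 and 33.8 CPM with vehicle and 148, 140 and 114 CPM with R1881. The groups did not overlap although the vehicle value of replicate 3 was far below the others, and the log2 change was 1.02 ± 0.28 (adjusted p = 0.0133). ACAT2, which joins acetyl-CoA units in the first step, rose by 0.89 ± 0.09, and FDPS, which makes farnesyl diphosphate, by 0.83 ± 0.09. PMVK, MVD and GGPS1, which act between mevalonate and geranylgeranyl diphosphate, were not called, at 0.18 ± 0.08, 0.43 ± 0.16 and 0.22 ± 0.23. MVD was called with the block (0.44 ± 0.12, adjusted p = 0.00631). Part of the exon sequence of FDPS (18.6%) is shared with an antisense gene, RUSC1-AS1, as are 15.0% in HMGCS1, 14.8% in IDI1 and 9.23% in ACAT2 with other genes, and whether the counting used strand is not given in the sources used here.

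In the sterol arm SQLE and FDFT1 had the smallest p-values. SQLE, squalene epoxidase, read 41.0, 41.2 and 36.0 CPM with vehicle and 75.2, 77.8 and 72.9 CPM with R1881, so the groups were far apart (log2 change 0.94 ± 0.08, adjusted p = 6.32e-07). FDFT1, squalene synthase, went from 152, 149 and 181 CPM to 293, 296 and 340 CPM, again with no overlap (0.95 ± 0.09, adjusted p = 1.19e-06). EBP, the sterol isomerase, had the largest rise of the arm, from a mean of 44.9 to 89.0 CPM (0.99 ± 0.13). LSS, CYP51A1, NSDHL and DHCR7 rose by 0.48 to 0.77. MSMO1, SC5D and HSD17B7 were not called, at 0.46 ± 0.44, 0.34 ± 0.41 and -0.09 ± 0.12, and MSMO1 and SC5D, whose replicate 3 values were the lowest relative to the others, were called with the block at 0.48 ± 0.10 and 0.38 ± 0.13. HSD17B7 has a copy, HSD17B7P2, with 13.2% as many counts, so reads may be split between them.

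TM7SF2 (chr11:65111845-65116384) was the exception in this arm. It encodes a C14-sterol reductase whose reaction can also be done by the lamin B receptor. Its levels were 250, 251 and 414 CPM with vehicle and 142, 137 and 172 CPM with R1881. All R1881 libraries were below all vehicle libraries, and the level fell by 1.02 ± 0.18 on the log2 scale (2.03-fold, adjusted p = 0.000489).

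The regulators split. INSIG1 (chr7:155297776-155310235), an SREBP target that retains SCAP, rose from 65.8, 65.8 and 49.8 CPM to 183, 172 and 161 CPM, a log2 change of 1.51 ± 0.14 with no overlap (2.84-fold, adjusted p = 9.67e-07). Its paralogue INSIG2 (chr2:118088452-118110997) read 47.5, 45.6 and 12.9 CPM with vehicle and 23.5, 23.6 and 13.9 CPM with R1881. Replicates 1 and 2 were lower with R1881 and replicate 3 was not, the groups overlapped, and the change was not called (-0.79 ± 0.40, adjusted p = 0.165). It was called with the block, at -0.71 ± 0.21 (adjusted p = 0.0108). SREBF2 rose by 0.53 ± 0.15 (adjusted p = 0.0145), while SREBF1, which encodes SREBP1, was not called (0.20 ± 0.24). SCAP (chr3:47413694-47477126) was called at 0.54 ± 0.18 (adjusted p = 0.0369), but its groups overlapped, with vehicle values of 83.1, 80.6 and 140 CPM against 139, 132 and 170 CPM. STARD4 was at 0.09 ± 0.42.

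The calls of IDI1, DHCR7, SREBF2 and SCAP were each lost when a single library was left out. IDI1 was lost without replicate 1 or 2 of the R1881 group or replicate 3 of the vehicle group, and DHCR7 and SREBF2 without replicate 1 or 2 of the vehicle group or replicate 3 of the R1881 group. SCAP was lost without any one of the replicates of either group except vehicle replicate 3. The fit to these 2 groups alone called 12 of the 31 genes and 12.9% of all tested genes, against 27% of all in the main fit. The fit to replicates 1 and 2 alone called SREBF1 as well, at 0.45 ± 0.06, where 47.3% of all tested genes were called.

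**Figure D3:**
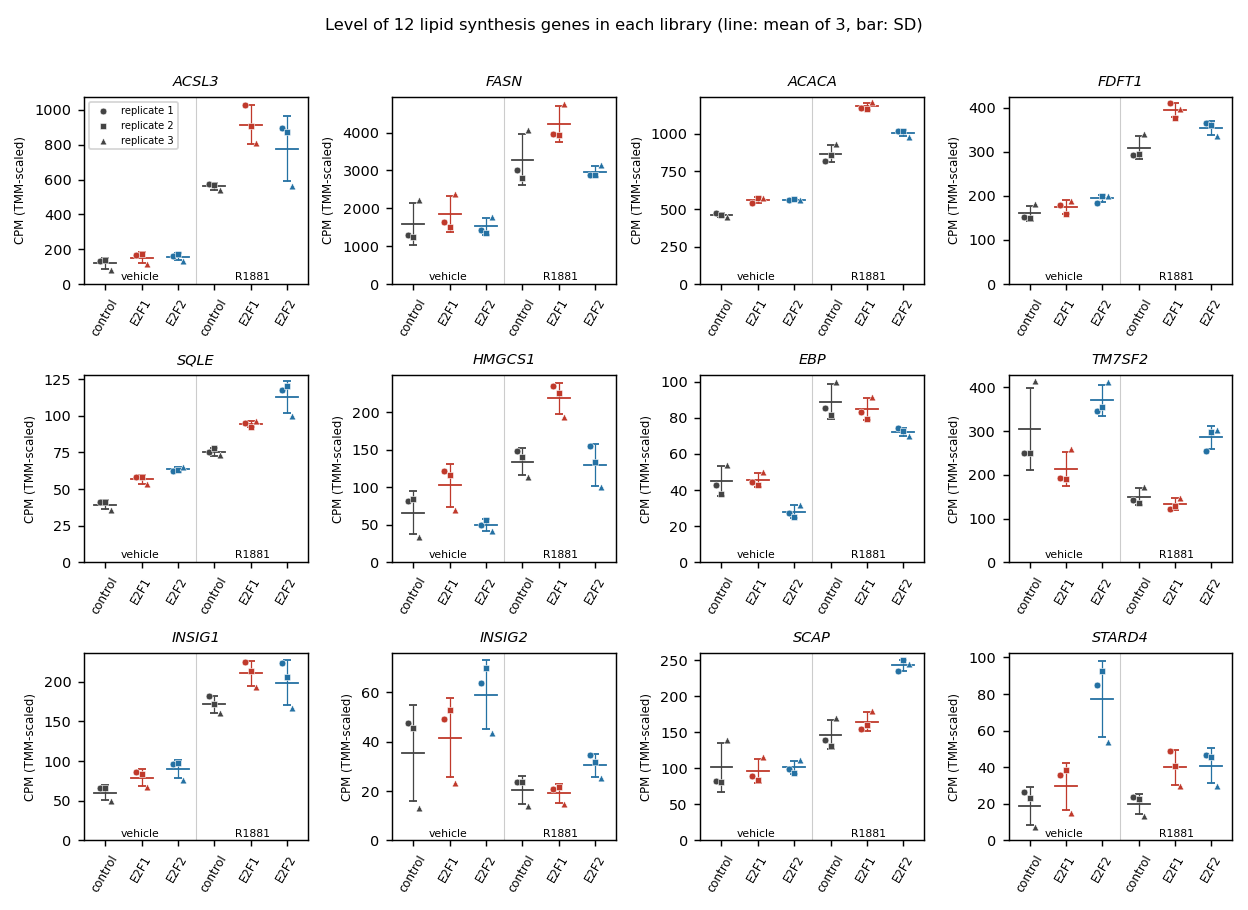
Level of 12 genes in each library, in TMM-scaled CPM on axes from 0 (points: libraries, shape by replicate; lines: group mean; bars: SD), with vehicle on the left and R1881 on the right of each panel and colour by siRNA. ACSL3, FASN, ACACA, FDFT1, SQLE, EBP and INSIG1 are higher with R1881 under every siRNA, TM7SF2 is lower, and SCAP is highest with E2F2 siRNA and R1881, at 235 to 250 CPM.

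With E2F1 siRNA, R1881 raised 18 of the 31 genes and lowered 1 (background 10.1% and 9.75%), with a median log2 change of 0.58. ACSL3 rose from 164, 175 and 117 CPM to 1029, 909 and 809 CPM (2.59 ± 0.22, adjusted p = 2.8e-07), the largest of the changes. ACACA rose by 1.08 ± 0.06, FDFT1 by 1.18 ± 0.09, INSIG1 by 1.41 ± 0.14 and FASN by 1.19 ± 0.22. TM7SF2 fell by 0.69 ± 0.18 (adjusted p = 0.0117), from 192, 190 and 259 CPM to 122, 129 and 147 CPM with no overlap. INSIG2 read 49.0, 52.8 and 23.2 CPM with vehicle and 20.8, 21.8 and 14.8 CPM with R1881. All 3 were lower, but the change of -1.12 ± 0.40 was not called (adjusted p = 0.0646), and it was called with the block (-1.07 ± 0.21, adjusted p = 0.000746). The block called 26 genes higher and 2 lower, where 30.7% of all tested genes were called against 19.8% without it. It added SC5D at 0.97 ± 0.13, MSMO1 at 0.62 ± 0.10, GGPS1, DHCR7, SREBF2, STARD4, ACSS2 and ME1 as higher. The calls of MVK, MVD, IDI1, CYP51A1, TM7SF2 and HMGCS1 were each lost when at least 1 of the 6 libraries was left out. For TM7SF2 it was R1881 replicate 1 (-0.63 ± 0.21) or vehicle replicate 3 (-0.52 ± 0.18), and for HMGCS1 it was vehicle replicate 3 (0.88 ± 0.29).

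With E2F2 siRNA, R1881 raised 18 genes and lowered none of the 31 (background 11.8% and 11.0%), with a median of 0.66. At an unadjusted p under 0.05, 22 of the 31 genes and 5083 of all 15185 tested genes passed. DESeq2 called 20 of the 31 and 19.8% of all genes. ACSL3 rose from 163, 173 and 133 CPM to 894, 873 and 561 CPM (2.31 ± 0.22, adjusted p = 9.11e-07). EBP, at 27.4, 24.9 and 32.0 CPM with vehicle and 74.3, 72.8 and 69.8 CPM with R1881, rose by 1.36 ± 0.13 (adjusted p = 1.28e-06). SCAP rose from 99.2, 94.0 and 111 CPM to 235, 250 and 245 CPM, here with no overlap (1.26 ± 0.18, adjusted p = 7.96e-05). INSIG1 rose by 1.14 ± 0.14 and HMGCS1 by 1.40 ± 0.29. TM7SF2 read 345, 356 and 411 CPM with vehicle and 255, 298 and 303 CPM with R1881: all 3 were lower, but the change of -0.38 ± 0.18 was not called (adjusted p = 0.152). STARD4 read 85.1, 92.8 and 53.9 CPM with vehicle and 46.8, 45.8 and 29.9 CPM with R1881, without overlap and not called (-0.92 ± 0.41, adjusted p = 0.126). The block called both lower, TM7SF2 at -0.37 ± 0.10 and STARD4 at -0.91 ± 0.17, and INSIG2 at -0.93 ± 0.20, for 22 higher and 3 lower in all, where 36.2% of all tested genes were called against 22.8% without it. PMVK, MVD, MSMO1 and SC5D were added as higher. The calls of IDI1 and SREBF2 (0.44 ± 0.15) were lost without at least 1 library each.

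Whether either siRNA pool changed the response itself was tested as a difference of responses. No gene of the 31 was called for E2F1 siRNA minus control (background 0.375% higher and 0.310% lower) or for E2F2 siRNA minus control (0.560% and 0.329%). At an unadjusted p under 0.05 there were 0 and 2 of the 31 genes, against 1544 and 1572 of all 15185 tested genes. DESeq2 called 0 of the 31 in both, and 2.63% and 2.36% of all genes. The differences ranged from -0.33 to 0.56 for E2F1 siRNA, with a median of 0.09, and from -1.01 to 0.72 for E2F2 siRNA, with a median of 0.01. For ACSL3 they were 0.34 ± 0.29 and 0.06 ± 0.29, and for FASN 0.14 ± 0.30 and -0.09 ± 0.30, and none of these was called. With replicates 1 and 2 alone, 5 genes were called for E2F1 siRNA and 8 for E2F2 siRNA, where 12.1% and 11.6% of all tested genes were called. ACSL3 was among them for both pools, at 0.45 ± 0.08 (adjusted p = 0.00024) and 0.33 ± 0.08 (adjusted p = 0.00514). The others for E2F1 siRNA were SC5D (0.51 ± 0.10), GGPS1, FDFT1 and ACACA. Those for E2F2 siRNA included HMGCS1 (0.64 ± 0.10), TM7SF2 (0.51 ± 0.08), EBP and SC5D, and INSIG1 in the other direction (-0.28 ± 0.08). The 3 largest differences belonged to E2F2 siRNA: STARD4 at -1.01 ± 0.59, SCAP at 0.72 ± 0.25 and TM7SF2 at 0.65 ± 0.25. With the replicate block, 4 genes passed for E2F2 siRNA, where 4.33% of all tested genes were called: SCAP at 0.71 ± 0.16 (adjusted p = 0.018), TM7SF2 at 0.63 ± 0.14 (0.0165), INSIG1 at -0.37 ± 0.09 (0.0306) and STARD4 at -1.07 ± 0.26 (0.0266). The block called 0 genes for E2F1 siRNA.

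**Figure D4:**
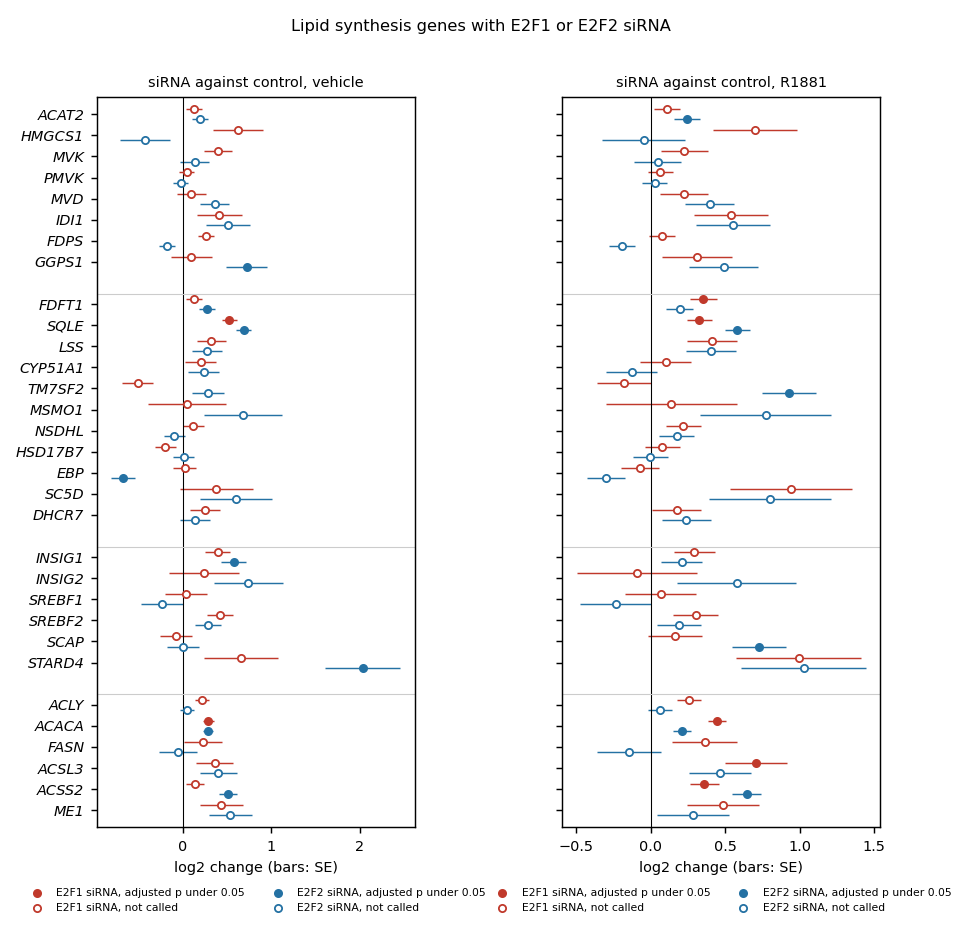
Log2 change of the 31 genes with E2F1 siRNA (red) or E2F2 siRNA (blue) against control siRNA, with vehicle on the left and R1881 on the right (points: estimate; bars: SE; filled: adjusted p under 0.05). Most points lie right of 0, SQLE and ACACA are filled for both pools in both panels, and STARD4 with E2F2 siRNA and vehicle is the largest change at 2.04.

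The siRNA pools themselves moved fewer of these genes, mostly upward. Under R1881, E2F1 siRNA raised 5 of the 31 genes against control siRNA and lowered 0 (background 4.42% and 4.92%), with a median log2 difference of 0.26 against -0.01 for all tested genes. At an unadjusted p under 0.05, 11 of the 31 genes and 3174 of all 15185 tested genes passed. DESeq2 called 6 of the 31 and 10.9% of all genes. ACACA read 818, 860 and 931 CPM with control siRNA and 1175, 1167 and 1210 CPM with E2F1 siRNA, a clear separation (0.45 ± 0.06, adjusted p = 0.000179). ACSL3 went from 576, 571 and 537 CPM to 1029, 909 and 809 CPM (0.71 ± 0.21, adjusted p = 0.0438). FDFT1 rose by 0.35 ± 0.09, SQLE by 0.33 ± 0.08 and ACSS2 by 0.36 ± 0.10. Only the ACACA call was kept whichever of the 6 libraries was left out. Those of the other 4 genes were each lost for several of the 6 libraries, ACSL3 for any one of them. The count ran from 1 to 3, and the shares of all genes called in these fits are not given here. With the block 15 genes rose (19.9% of all genes called), adding HMGCS1, IDI1, LSS, SC5D, INSIG1, SREBF2, STARD4, ACLY, FASN and ME1. STARD4 was then at 1.02 ± 0.18 and HMGCS1 at 0.71 ± 0.15.

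With vehicle, E2F1 siRNA raised SQLE and ACACA and lowered none (background 2.36% and 2.92%), and the median difference was 0.23. At an unadjusted p under 0.05, 9 of the 31 genes and 2440 of all 15185 tested genes passed. DESeq2 called 2 of the 31 and 6.05% of all genes. SQLE read 41.0, 41.2 and 36.0 CPM with control siRNA and 58.4, 58.2 and 53.2 CPM with E2F1 siRNA (0.52 ± 0.08, adjusted p = 0.00135), and ACACA rose by 0.29 ± 0.06 (adjusted p = 0.0089). Neither pair of groups overlapped. In the edgeR fit to these 2 groups alone both calls were lost, at adjusted p = 0.249 for SQLE and 0.438 for ACACA, and 0.119% of all genes were called. The block called 12 genes higher and 1, TM7SF2, lower (-0.50 ± 0.10), where 12.7% of all genes were called. The genes added as higher were HMGCS1, MVK, IDI1, FDPS, INSIG1, SREBF2, STARD4, ACLY, ACSL3 and ME1. Without control siRNA vehicle replicate 3 the count was 7, and the share of all genes called in that fit is not given here.

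E2F2 siRNA raised 6 of the 31 genes under R1881 and lowered 0, but this pool changed many genes: the background was 15.9% higher and 14.4% lower, so the share of the 31 (6 genes) was near it. At an unadjusted p under 0.05, 14 of the 31 genes and 6063 of all 15185 tested genes passed. DESeq2 called 7 of the 31 and 26.8% of all genes. The 6 were TM7SF2, SQLE, ACSS2, SCAP, ACACA and ACAT2. TM7SF2 rose from 142, 137 and 172 CPM to 255, 298 and 303 CPM (0.93 ± 0.18, adjusted p = 0.00102), and SCAP from 139, 132 and 170 CPM to 235, 250 and 245 CPM (0.73 ± 0.18, adjusted p = 0.00602). Neither overlapped. ACSS2 was not called for R1881 against vehicle in control siRNA cells. Under R1881 it read 59.0, 53.8 and 63.6 CPM with control siRNA and 91.5, 92.8 and 91.5 CPM with E2F2 siRNA (0.65 ± 0.10, adjusted p = 0.000126). SQLE rose by 0.58 ± 0.08. FASN was not called, at -0.15 ± 0.22. INSIG2, at 0.58 ± 0.40, was not called but was called with the block (0.62 ± 0.21, adjusted p = 0.0233). The ACAT2 call (0.24 ± 0.09) was lost for 5 of the 6 libraries left out, and that of ACACA (0.21 ± 0.06) for control replicates 1 and 2. With the block 18 rose and 2, FDPS and EBP, fell (-0.19 ± 0.07 and -0.29 ± 0.08), where 45.6% of all genes were called. Beside INSIG2 it added STARD4 at 1.05 ± 0.18, SC5D at 0.80 ± 0.13, MSMO1 at 0.78 ± 0.10, IDI1, GGPS1, ACSL3, LSS, MVD, DHCR7, INSIG1 and FDFT1 as higher.

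With vehicle, E2F2 siRNA raised 7 genes and lowered 1 (background 14.2% and 13.1%). STARD4 (chr5:111496033-111512590), which carries cholesterol between membranes, changed most: 26.3, 23.0 and 7.21 CPM with control siRNA and 85.1, 92.8 and 53.9 CPM with E2F2 siRNA. The groups were far apart, at 2.04 ± 0.43 (4.11-fold, adjusted p = 0.00208). SQLE rose by 0.69 ± 0.08, ACSS2 by 0.51 ± 0.10, INSIG1 by 0.57 ± 0.14, ACACA by 0.28 ± 0.06, GGPS1 by 0.72 ± 0.23 and FDFT1 by 0.28 ± 0.09. EBP fell by 0.68 ± 0.13, from 42.5, 38.0 and 54.1 CPM to 27.4, 24.9 and 32.0 CPM (adjusted p = 0.00122). The GGPS1 call was lost without E2F2 siRNA replicate 1 or 2 or control replicate 3, and that of FDFT1 without control replicate 1 or 2 or E2F2 siRNA replicate 2 or 3. The count was 12 without control siRNA vehicle replicate 3, and the share of all genes called in that fit is not given here. The block called 18 higher and 2, EBP and FDPS, lower (45.3% of all genes). It added INSIG2 at 0.84 ± 0.20, MSMO1 at 0.72 ± 0.10, SC5D, ME1, IDI1, ACSL3, MVD, TM7SF2, SREBF2, LSS and ACAT2 as higher.

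Set directly against each other, the pools differed in a few genes, at shares near or below those over all tested genes. Under R1881, 4 genes were higher and 2 lower with E2F2 than with E2F1 siRNA (background 13.1% and 11.0%). TM7SF2 was 2.15-fold higher (1.10 ± 0.18, adjusted p = 0.000339), SCAP differed by 0.56 ± 0.18, ACSS2 by 0.28 ± 0.10 and SQLE by 0.25 ± 0.08, while FDPS (-0.27 ± 0.09) and ACACA (-0.23 ± 0.06) were lower. Only TM7SF2 and ACACA kept their calls whichever of the 6 libraries was left out. With vehicle, TM7SF2 (0.80 ± 0.18), STARD4 (1.38 ± 0.42) and ACSS2 (0.38 ± 0.10) were higher, and HMGCS1, FDPS and EBP lower (background 16.1% and 14.4%). HMGCS1 read 50.03, 56.8 and 41.1 CPM with E2F2 siRNA and 121, 116 and 69.7 CPM with E2F1 siRNA, without overlap (-1.05 ± 0.29, adjusted p = 0.0107). FDPS was at -0.44 ± 0.09 and EBP at -0.70 ± 0.13. The STARD4 call was lost without E2F2 siRNA replicate 1 or 2 or E2F1 siRNA replicate 3. With the block, FASN and ACLY were lower with E2F2 siRNA under both treatments: under R1881 FASN was at -0.50 ± 0.10 and ACLY at -0.19 ± 0.06, for 6 higher and 7 lower, where 38.5% of all genes were called. With vehicle they were at -0.26 ± 0.10 and -0.17 ± 0.06, for 7 higher and 5 lower, where 45.5% of all genes were called, so both counts were near or below those shares. Under R1881 the block also added MSMO1 and INSIG2 as higher and HMGCS1, EBP and SREBF1 as lower, and with vehicle GGPS1, MSMO1, INSIG1 and INSIG2 as higher.

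The counts for genes around the pathway stand beside the shares of all tested genes given above, which with R1881 in control siRNA cells were 13.8% higher and 13.2% lower. Of 8 other sterol synthesis genes and SREBP targets, 5 rose with R1881 in control siRNA cells and none fell. TMEM97, a sterol-regulated membrane protein, rose by 0.87 ± 0.11, yet was lower with E2F2 siRNA than with control siRNA under R1881 (-0.97 ± 0.11, adjusted p = 1.02e-05). Of 12 genes of SREBP processing and turnover, 2 rose and 1 fell with R1881, near those shares: ERLIN1 rose by 0.63 ± 0.12 and ERLIN2 fell by 0.52 ± 0.06, both scaffold proteins of the endoplasmic reticulum that bind the SREBP-SCAP-INSIG complex.

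Cholesterol uptake, storage and trafficking had 6 of 11 tested genes higher and 0 lower with R1881 in control siRNA cells (13.8% and 13.2% of all tested genes), among them the lipoprotein receptor LRP8 (0.91 ± 0.08), the lysosomal exporter NPC1 (0.40 ± 0.06) and the oxysterol-binding protein OSBP (0.37 ± 0.06). Of 6 tested genes of LXR and sterol efflux, 0 rose and 3 fell: the exporter ABCA1 from a mean of 12.0 to 1.06 CPM (-3.50 ± 0.20, adjusted p = 4.15e-09), ABCG1 (-1.51 ± 0.13) and LPCAT3 (-0.40 ± 0.10). The counts of the next 3 lists lay near the shares over all genes. In the isoprenoid branch 2 of 14 rose, PDSS1 of coenzyme Q synthesis (0.90 ± 0.18) and ICMT (0.41 ± 0.08). Of 14 genes of fatty acid supply and its regulation, 2 rose and 1 fell, with IDH1, a source of NADPH, at 1.11 ± 0.15. Of 16 tested genes of glycerolipid synthesis and lipid droplets 2 rose and 3 fell, LPIN1 at 0.77 ± 0.07 and DGAT2, which makes triglyceride, at -0.71 ± 0.13.

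Fatty acid oxidation, the reverse route, had 2 genes higher and 6 lower of 18 with R1881 (13.8% and 13.2% of all tested genes): ECI2 rose by 1.08 ± 0.09, and ETFB (-0.68 ± 0.09) and HADHA (-0.46 ± 0.06) fell. Against control siRNA under R1881, E2F2 siRNA raised 14 of these 18 genes and lowered 0, with a median of 0.51 against 0.03 for all tested genes, of which 15.9% were higher and 14.4% lower. ACAA2 (1.02 ± 0.12), ETFDH (0.83 ± 0.11) and CPT1A (0.55 ± 0.07), the last the gate of fatty acid entry to mitochondria, had the smallest p-values. E2F1 siRNA raised 4 and lowered 0 (4.42% and 4.92% of all). Directly compared under R1881, E2F2 siRNA had 9 of the 18 higher than E2F1 siRNA and 0 lower (13.1% and 11.0% of all). With vehicle, E2F2 siRNA raised 8 and lowered 1 against control siRNA (14.2% and 13.1% of all).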

How the data were processed

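RNA from 18 libraries was sequenced after an Illumina exome-capture protocol, per the labels' protocols. The deposited table holds raw counts per gene. Per the submitters' processing notes, CASAVA 1.8.2, TopHat2 2.0.13, Picard 1.97 and Subread 1.6.4 (featureCounts) were used with GRCh38; the gene annotation and strand setting are not given in the sources used here. Capture, unlike whole-RNA sequencing, weighs genes by their probes, so levels between genes are approximate. Gene lengths came from GENCODE 29.

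Counts were fitted in R 4.3.3 with edgeR 4.0.16 (filterByExpr with a minimum count of 10 and total of 15, TMM, 6 group means, quasi-likelihood F test) and adjusted by Benjamini-Hochberg over 15185 genes. There were 11 comparisons, which share libraries. Tested genes held at least 99.9% of counts. The biological coefficient of variation was 0.167. The SE of a change was obtained from F, as |log2 change|/√F. The fit was tested on simulated counts. Alternatives were DESeq2 1.42.0, RLE scaling, other filters, a fit to the groups compared, the replicate number as a block, replicates 1 and 2 only, and leaving out each library. Same-numbered libraries deviated together in every comparison (r of 0.17 to 0.91 over genes). The main fit nevertheless left the numbers out, and only the block fit took them as pairs. Deviations were taken from the mean of each group, so a shift shared by the replicate 3 libraries alone would also make r positive. Correlations between differently numbered libraries were not taken, so a pairing of replicates 1 and 2 was not tested. The labels give no more on what a number marks. Promoters are from RefSeq.

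Members and lists were chosen with earlier results of these data known. Each of the 31 genes could be named; full values went to at most 6 called genes per comparison by p, and from related lists up to 3 called genes with the smallest p.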

Additional observations from a re-analysis of the deposited data

Results flagged for a closer look

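The response to R1881 differed between siRNA pools, by the test of the difference itself with edgeR, in 4 genes of the related lists and in none of the 31 synthesis genes. They were 1 of 11 tested genes of cholesterol uptake and trafficking, 1 of 6 of sterol efflux and 2 of 18 of fatty acid oxidation. Of all tested genes, 0.685% were called for E2F1 siRNA and 0.889% for E2F2 siRNA. NPC1, the lysosomal cholesterol exporter, rose with R1881 in control siRNA cells, from 164, 163 and 148 CPM to 209, 205 and 215 CPM. It was lower with R1881 in E2F1 siRNA cells, at 322, 335 and 297 CPM with vehicle and 239, 247 and 245 CPM with R1881. The difference in response was -0.79 ± 0.09 on the log2 scale (SE, adjusted p = 0.000845). ABCG1, a sterol exporter, went from a mean of 38.5 to 13.6 CPM with control siRNA and from 25.9 to 16.9 CPM with E2F1 siRNA, a difference of 0.89 ± 0.17 (adjusted p = 0.0282). HADH, a mitochondrial oxidation enzyme, went from a mean of 108 to 113 CPM with control siRNA and from 94.3 to 145 CPM with E2F2 siRNA, a difference of 0.55 ± 0.11 (adjusted p = 0.0237). ECI2, an isomerase of unsaturated fatty acid oxidation, went from 107 to 227 CPM with control siRNA and from 79.1 to 276 CPM with E2F2 siRNA, a difference of 0.72 ± 0.13 (adjusted p = 0.0137). Each group held 3 libraries, and the comparisons share the control siRNA libraries.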

How the results depend on the processing

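Counts are of the 31 genes called per comparison. RLE scaling, a filter of 1 CPM in 3 libraries and DESeq2 kept every count within 1.5 times. The replicate block gave 15 and 20 genes for E2F1 and E2F2 siRNA against control under R1881, 13 and 20 with vehicle, 13 and 12 for E2F2 against E2F1 siRNA under R1881 and vehicle, and 4 for the difference in response with E2F2 siRNA; it ended no call of a gene. Replicates 1 and 2 alone gave 29 for R1881 with E2F1 siRNA, 18 and 24 under R1881, 20 and 23 with vehicle, 15 and 15 for the pools compared, and 5 and 8 for the differences in response. The share of all tested genes called rose with these counts: with replicates 1 and 2 alone it was 38.3%, 29.5%, 51.4%, 18.8%, 45.7%, 44.7%, 50.4%, 12.1% and 11.6%, in that order. FASN with E2F2 siRNA and vehicle changed sign there, at 0.14 against -0.05, not called in the full fit. Fits to the groups compared gave 12 for R1881 with control siRNA, where 12.9% of all tested genes were called. For E2F1 and E2F2 siRNA under R1881 they gave 10 and 10 (15.2% and 39.6% of all genes). With vehicle they gave 0 and 3 (0 by edgeR; 0.119% and 12.5% of all genes). For the pools compared under R1881 they gave 12 (36.7% of all genes). Without a filter, E2F1 siRNA gave 2 under R1881 and 1 with vehicle. Leaving out 1 library gave 1 to 3 for E2F1 siRNA under R1881, 2 to 7 with vehicle, 6 to 12 for E2F2 siRNA with vehicle, 2 to 3 for the pools compared under R1881, 17 to 22 for R1881 with control siRNA and 16 to 19 with E2F1 siRNA. The causes were not tested, and the shares of all genes called without a filter or with 1 library left out are not given here. With 3 libraries a group, AT-rich genes such as STARD4, INSIG2, MSMO1 and SC5D had SEs of about 0.4 in the fit without the block, which called no change of that size for them; the block called some.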
